A study of Homo sapiens with 18 samples.

Results

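RMRP and RPPH1, the RNA components of the ribonucleoproteins RNase MRP and RNase P, were followed across small RNA-seq libraries of HEK293T cells, a human embryonic kidney line. They were taken by name, as the 2 rows called RMRP and RPPH1 among 175935 rows of the count table. The siSSB cells had been transfected for 48 h with an siRNA against SSB, which encodes the chaperone La, and the control cells with a scramble siRNA. Each was sequenced as whole-cell RNA (total), a nuclear fraction (nuc) and a cytoplasmic fraction (cyto), giving 6 groups of 3 biological replicates and 18 libraries in all, every one of them marked as prepared with PNK. All 18 libraries come from this 1 cell line, and the table lists noncoding RNA, so the level of SSB mRNA itself was not measured by a row of that name and siSSB stands for the label of a library.

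RNase P is the enzyme that trims the 5′ leader from precursor tRNA, and RPPH1 (also called H1 RNA) is its catalytic RNA. It also cleaves the tRNA-like structures at the 3′ ends of the long noncoding RNAs MALAT1 and NEAT1. RNase MRP is a nucleolar relative that shares most of its protein subunits with RNase P and cuts the ribosomal RNA precursor in its first internal spacer, and variants of RMRP cause cartilage-hair hypoplasia. Both RNAs are made by RNA polymerase III (Pol III) from genes whose promoter lies upstream of the transcribed part. New Pol III transcripts end in a run of uridines, the feature that La binds.

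RMRP (ENSG00000277027.1) lies at chr9:35657754-35658017 in hg38, on the minus strand, and is a single noncoding exon of 264 nt. No other annotated gene overlapped it, and the nearest coding gene, CCDC107, began 273 nt away on the opposite strand. RPPH1 (ENSG00000277209.1) lies at chr14:20343075-20343407, also on the minus strand, as a single exon of 333 nt. It overlaps a long noncoding RNA gene, ENSG00000259001, and the coding gene PARP2 lies 208 nt away on the opposite strand. In the table each row extended 25 nt beyond both ends of the annotated gene. The RNAs are shown whole for RMRP and for the first 300 nt of RPPH1, written as DNA from the hg38 genome, 5′ to 3′. A run of 4 or more T would be in capitals, and neither sequence holds one.

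RMRP: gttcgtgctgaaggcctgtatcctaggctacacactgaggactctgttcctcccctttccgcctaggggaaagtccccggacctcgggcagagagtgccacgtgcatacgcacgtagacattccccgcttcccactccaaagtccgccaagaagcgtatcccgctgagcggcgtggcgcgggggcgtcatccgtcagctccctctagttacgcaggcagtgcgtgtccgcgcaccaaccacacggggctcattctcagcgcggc
RPPH1: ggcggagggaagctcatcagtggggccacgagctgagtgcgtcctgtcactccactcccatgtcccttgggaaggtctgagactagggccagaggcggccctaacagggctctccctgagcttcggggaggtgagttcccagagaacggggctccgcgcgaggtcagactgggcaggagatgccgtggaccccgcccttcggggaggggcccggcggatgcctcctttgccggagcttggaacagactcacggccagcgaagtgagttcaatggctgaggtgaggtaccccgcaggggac

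Both RNAs were rich in G and C, at 63.3% of bases in RMRP and 64.6% over the whole of RPPH1. In a global alignment they were identical at 183 of 356 alignment columns (51.4%), and the longest run that they shared was 9 nt, acggggctc, which starts at base 242 of RMRP and base 146 of RPPH1.

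Their 3′ ends are shown because La binds uridine runs there. Each sequence below holds the last 30 nt of the annotated gene and the 25 nt that follow, with the run of 4 or more T nearest to the gene end in capitals. The vault RNA VTRNA1-1, part of the cytoplasmic vault particle, and the Y RNA RNY1, a partner of the Ro60 protein, are given for comparison.

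RMRP: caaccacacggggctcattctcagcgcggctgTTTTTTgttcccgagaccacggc
RPPH1: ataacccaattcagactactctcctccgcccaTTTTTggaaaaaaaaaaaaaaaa
VTRNA1-1: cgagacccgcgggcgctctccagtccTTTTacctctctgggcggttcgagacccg
RNY1: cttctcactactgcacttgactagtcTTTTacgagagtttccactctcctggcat

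In RMRP the run was 6 T long and in RPPH1 5 T long, and in both it started at the third base after the annotated end of the RNA. The annotated RMRP and RPPH1 thus end with 0 T. In VTRNA1-1 and RNY1 the run of 4 T was itself the annotated end of the RNA. Other Pol III RNAs differed in this, since in RN7SK and RN7SL1 a run of 4 T began at the last annotated base, with 1 T inside the RNA, and the window of VTRNA1-3 held no run of 4 T. The reads behind the rows were not analysed here, so the 3′ ends present in these cells were not measured.

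The promoter letters are shown because genes of this promoter type carry a TATA box upstream of the RNA. Each sequence holds 80 nt before the gene start and the first 20 nt of the RNA. The motif TATAA was searched on both strands between 40 and 15 nt before the start, and matches are in capitals.

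RMRP: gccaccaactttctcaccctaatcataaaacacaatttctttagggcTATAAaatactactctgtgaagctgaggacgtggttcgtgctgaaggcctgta
RPPH1: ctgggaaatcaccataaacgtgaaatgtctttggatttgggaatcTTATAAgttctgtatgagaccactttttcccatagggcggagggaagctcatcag

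The TATAA match began 33 nt before the start of RMRP and 34 nt before that of RPPH1. In RPPH1 a match on the opposite strand overlaps it, so that the capitals begin at the base before. Of 35116 RefSeq promoters (GRCh38.p14) 4.72% held the motif in the same window. Neither RNA is in that promoter table, so their sequences come from the hg38 genome.

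RMRP was the more abundant RNA in every library. It held 2313 to 8104 counts per library and RPPH1 942 to 3405. By mean count they stood at ranks 186 and 296 among 6410 rows of at most 500 nt with distinct counts, and they made up 0.0832% and 0.0302% of the counts in those rows. These values pool fractions of different composition, and by library the CPM of the short-row total ran from 350.1 to 1880 for RMRP and from 124.7 to 642 for RPPH1. Per nt of RNA, the level of RMRP was 2.46 to 5.63 times that of RPPH1, with a median of 3.68 over the 18 libraries. The table gives no position within a row, so whole RNA and fragments of it cannot be told apart.

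Other rows that cover the same positions held these reads again. The lncRNA rows lnc-CCNB1IP1-1 and AL355075.4 span RPPH1, which made up 25637 of the 25638 counts of the former and 99.99% of those of the latter. Over RMRP lie 2 rows named as SRP RNA, 259477 and 62579 nt long and on the opposite strand, and RMRP made up 97.94% and 99.74% of their counts. A change in any of these 4 rows is thus a change in RMRP or RPPH1 counts. The annotated copies RMRPP5 and RPPH1-2P had rows at 0 counts in every library, and RPPH1-3P had 1 count in all, so few reads were assigned to them.

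Libraries differed more in their column sums than in these 2 rows. Column sums ran from 21565995 to 158244813 counts and counts in the rows of at most 500 nt from 2471886 to 7971280, a ratio of 8.62 to 20.3 that was highest in nuc and lowest in cyto. Because overlapping rows count a read more than once, a column sum is not a number of reads. Levels are therefore given as TMM-scaled CPM, counts scaled to a library size (CPM) that was adjusted so that most rows agree between libraries, unless another scale is named. On this scale the summed level of 6 RNAs known from the nucleus or nucleolus was 551 to 822 CPM in nuc and 112 to 196 CPM in cyto. For 29 RNAs known from the cytoplasm or mitochondria it was 688 to 1072 CPM in nuc and 2441 to 3469 CPM in cyto, and none of either list was at 0 in any library. These sums were taken on this scale only, do not show the direction on another, and hide members that go the other way. In control cells 3 of the 29 cytoplasmic rows were higher in nuc and 16 lower (adjusted p under 0.05 by edgeR with TMM). Of 74 rows of the nuclear RNAs 16 were higher and 1, RN7SK, lower, beside 9.21% and 14.1% of all rows tested. In a fit of rows of at most 500 nt only, 33.5% were called higher and 42.5% lower. In bulk RNA of this kind, fewer cells that hold an RNA and less RNA per cell cannot be told apart.

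The level of RMRP in control cells was 59.1 ± 4.51 CPM in total, 126 ± 70.7 in nuc and 33.5 ± 8.08 in cyto (mean ± SD, n = 3 libraries each). In siSSB cells it was 63.2 ± 9.33 CPM in total, 126 ± 65.0 in nuc and 32.7 ± 7.86 in cyto. RPPH1 had 17.3 ± 1.26 CPM in control total, 52.1 ± 31.6 in control nuc and 13.7 ± 4.53 in control cyto. The order of the groups in RMRP was nuc, then total, then cyto, and within each of these the control and siSSB libraries overlapped. In siSSB cells RPPH1 had 16.3 ± 1.25 CPM in total, 49.1 ± 30.8 in nuc and 14.0 ± 3.78 in cyto. For RPPH1 the nuc groups again stood apart, but the ranges of total and cyto overlapped in control as well as in siSSB cells.

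This order belongs to the scale. In CPM of the plain column sum, siSSB cyto and control cyto were highest for both RNAs, with means of 134 and 119 for RMRP and 57.3 and 47.9 for RPPH1. The same scale put control nuc last, at 28.5 for RMRP and 11.8 for RPPH1. Both panels are drawn in the plot of levels by library.

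**Figure D1:**
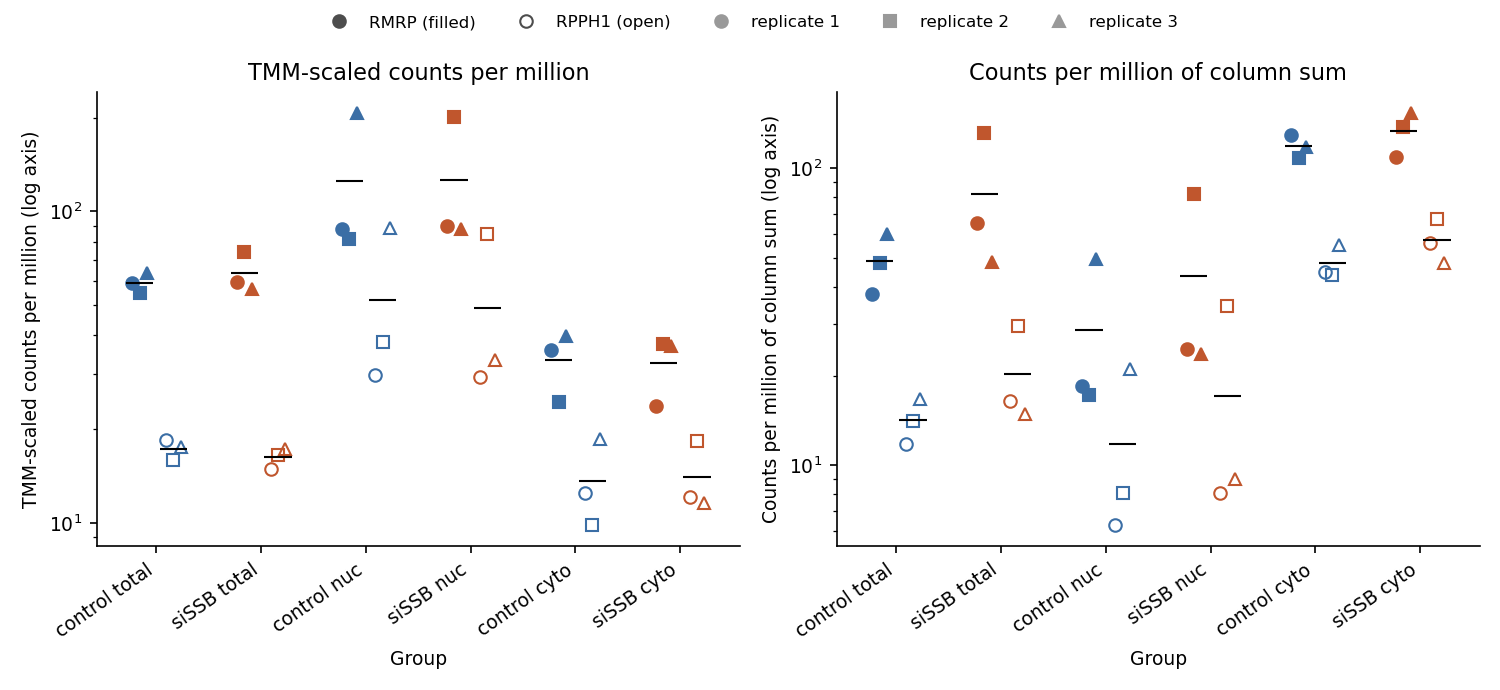
Levels of RMRP (filled) and RPPH1 (open) in the 18 libraries as TMM-scaled CPM (left) and as CPM of the plain column sum (right), both on log axes, with blue for control, orange for siSSB and bars at group means. On the left nuc is highest and on the right cyto is highest, and control nuc replicate 3 and siSSB nuc replicate 2 lie above the other nuc libraries in both panels.

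Among the nuc libraries, 1 of each treatment stood well above the rest for both RNAs. RMRP stood at 88.1, 81.6 and 207 CPM in control nuc replicates 1, 2 and 3, and at 89.6, 201 and 88.0 CPM in siSSB nuc. RPPH1 was at 29.8, 38.2 and 88.3 CPM in control nuc and at 29.3, 84.6 and 33.4 CPM in siSSB nuc. Control nuc replicate 3 and siSSB nuc replicate 2 were thus the high libraries in each case. RN7SL1, the RNA of the signal recognition particle, was high in the same libraries, with 1376, 982 and 4260 counts in control nuc and 1289, 5016 and 1371 in siSSB nuc. RN7SK, the RNA that holds the transcription factor P-TEFb in check, was not, with 1669, 1530 and 1272 counts in control nuc and 1371, 1700 and 1271 in siSSB nuc. Results that rest on nuc libraries are given below also without 1 or both of them.

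Whether La depletion changed the amount of either RNA was asked in each compartment. In total RNA, the counts of RMRP were 3390, 3350 and 4218 in control and 3776, 6286 and 3318 in siSSB libraries. Those of RPPH1 were 1060, 981 and 1166 in control and 946, 1408 and 1020 in siSSB. In these counts the siSSB values surround the control values in both cases. On the TMM scale of the fit this held for RMRP only. RPPH1 there ran from 15.6 to 18.5 CPM in control and from 15.4 to 17.0 CPM in siSSB total. The log2 fold change of siSSB over control was 0.12 ± 0.28 (SE) for RMRP and −0.08 ± 0.24 for RPPH1, with adjusted p = 0.884 and 0.916 (edgeR quasi-likelihood F-test, Benjamini-Hochberg over all rows tested). Of the 13883 rows tested, 1.34% were called at an adjusted p under 0.05. The 95% interval of the fold change ran from 0.712 to 1.66 for RMRP and from 0.663 to 1.35 for RPPH1. Scaling moved these values, in part beyond those intervals. The log2 fold change of RMRP was 0.93 with the snoRNA total (adjusted p = 0.0916 by edgeR), 0.75 with the plain column sum, 0.74 with the total of short rows and −0.40 with the microRNA total, and that of RPPH1 ran from −0.59 to 0.68, with no call in any of them.

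In nuc, RMRP held 2934, 2313 and 5617 counts in control and 3017, 8104 and 2630 in siSSB libraries. For RPPH1 these counts were 994, 1083 and 2394 in control and 988, 3405 and 997 in siSSB. Each group has 1 high library, and the groups overlapped. The log2 fold change was 0.16 ± 0.41 for RMRP (95% interval of the fold 0.616 to 2.04, adjusted p = 0.888 by edgeR) and 0.07 ± 0.45 for RPPH1 (0.540 to 2.05, adjusted p = 0.960), in a comparison with 0.378% of rows called. The sign of both rested on those libraries. Without siSSB nuc replicate 2 the log2 fold change was −0.39 for RMRP and −0.63 for RPPH1, and without control nuc replicate 3 it was 0.73 and 0.68, with no call in either case. Without both they were 0.23 ± 0.22 and 0.05 ± 0.26 (adjusted p = 0.653 and 0.953 by edgeR).

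In cyto, RMRP held 3288, 2340 and 5295 counts in control and 3173, 3709 and 3822 in siSSB libraries. RPPH1 had 1138, 942 and 2473 counts in control and 1624, 1821 and 1197 in siSSB. In these cyto counts the control range enclosed that of siSSB for both RNAs. On the TMM scale of the fit this held for RPPH1 only. RMRP there ran from 105 to 147 CPM in control and from 102 to 138 CPM in siSSB cyto. The log2 fold change was −0.04 ± 0.26 for RMRP (95% interval of the fold 0.653 to 1.45) and 0.05 ± 0.29 for RPPH1 (0.656 to 1.62), both with adjusted p = 0.994 by edgeR, and 0.291% of rows were called. A change within these intervals was not excluded by the fit of 3 libraries a group, and no detection limit was computed.

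The other Pol III RNAs of a list of named genes serve as a frame, and their values are drawn in the plot of knockdown changes. Of its 19 rows 16 were tested in each compartment, of which 5 were called lower in total, 4 in nuc and 2 in cyto, and 0 were called higher. RNU6-1 and SNAR-A1 have several rows each in the list, so these are counts of rows and not of independent genes. The median log2 fold change of the list was −0.59 in total, −0.63 in nuc and −0.10 in cyto, beside medians over all rows tested of −0.01, 0.08 and 0.01. Over all rows tested 0.972%, 0.349% and 0.27% were called lower. In fits of rows of at most 500 nt only, these shares were 3.81%, 1.54% and 0.858%. Without siSSB nuc replicate 2 the list had 0 calls in nuc and without siSSB nuc replicate 1 it had 2, and in cyto it had 0 or 1 whichever library was left out. In total it had 2 without siSSB total replicate 1. With the snoRNA total its median in total was 0.15. The vault RNA VTRNA1-2 fell by 2.58 ± 0.38 on the log2 scale in total, and VTRNA1-1 by 2.25 ± 0.34 (adjusted p = 0.0123 and 0.0128 by edgeR). Among the 9 tested rows of genes with the same kind of promoter as RMRP and RPPH1 (7SK, Y RNA and U6 genes), 0 were called by edgeR in any compartment (2, 2 and 0 had an unadjusted p under 0.05 in total, nuc and cyto, as did 16.6%, 14.0% and 6.66% of all rows), and in total their log2 fold changes ran from −0.90 to −0.02. No difference between these RNAs and RMRP or RPPH1 was tested.

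**Figure D2:**
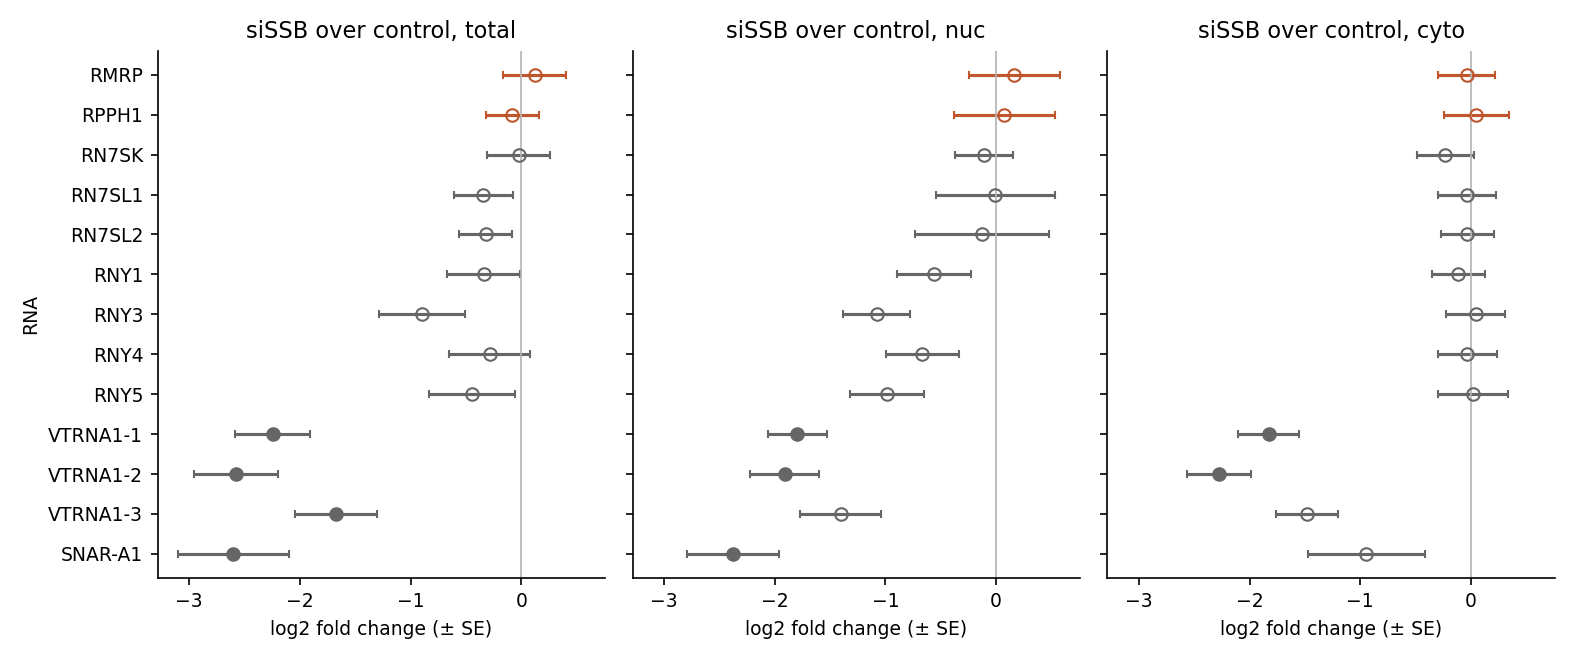
Log2 fold change of siSSB over control (± SE, 3 libraries a group) for RMRP, RPPH1 and other Pol III RNAs in total, nuc and cyto, filled where the adjusted p was under 0.05. RMRP and RPPH1 lie close to 0 in all 3 panels, between −0.08 and 0.16, while VTRNA1-2 lies at −2.58, −1.91 and −2.28.

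The known substrates of both enzymes are listed in the same comparisons. For RNase P, of 499 rows named as tRNA genes 436 were tested in total, and 43 were called lower and 0 higher, where 0.972% of all rows were lower and 0.367% higher. In the fit of rows of at most 500 nt only, 3.81% were called lower and 5.75% higher. The median log2 fold change of the tRNA rows was −0.84. In cyto 19 of 442 were called lower and 0 higher (median −0.61), and in nuc 1 of 316 was called in each direction (median −0.35), with 0 or 1 higher and 0 to 3 lower when any 1 library was left out. tRNA-Arg-TCG-4-1 fell by 2.36 ± 0.37 on the log2 scale in total and fell by 2.63 ± 0.29 in cyto (adjusted p = 0.0137 and 0.0105 by edgeR). Single libraries moved these counts. In total 13 tRNA rows were called lower without siSSB total replicate 2, 15 without siSSB total replicate 1, 16 without control total replicate 2, 84 without control total replicate 3 and 102 without siSSB total replicate 3. In cyto 0 were called without siSSB cyto replicate 1, 1 without control cyto replicate 1, 3 without control cyto replicate 2, 5 without siSSB cyto replicate 2 and 11 without control cyto replicate 3. The cyto call of tRNA-Arg-TCG-4-1 was lost without siSSB cyto replicate 1 (adjusted p = 0.172 by edgeR) or control cyto replicate 1 (0.0524). That call was also lost with replicate number as a block (0.135) and with the snoRNA total (0.324). Scaled to the snoRNA total, its call in total was lost too (adjusted p = 0.0527 by edgeR, log2 fold change −1.743). The median log2 fold change of all rows in total was then 0.71. Both calls were kept with the column sum (0.0181 in total and 0.0319 in cyto), the short-row total and the microRNA total. Rows of near-identical tRNA genes can share reads, and a row does not separate mature tRNA from precursor, so cleavage was not measured by these values. Of the 69 rows named MALAT1 or NEAT1, which overlap each other, 0 were called by edgeR in any compartment, with 3, 32 and 0 at an unadjusted p under 0.05 in total, nuc and cyto. In nuc 67 of them were tested. Of all rows 16.6%, 14.0% and 6.66% had such a p. The medians of the MALAT1 and NEAT1 rows were 0.15, 0.51 and 0.24, beside −0.01, 0.08 and 0.01 over all rows. For RNase MRP, 0 of 9 rRNA rows were called by edgeR (0, 4 and 0 at an unadjusted p under 0.05, beside the same shares of all rows), with medians of −0.10 in total, −0.15 in nuc and −0.16 in cyto.

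The question of where RMRP and RPPH1 lie in the cell was addressed by nuc against cyto. In the fit of the control libraries alone, RMRP was at 119 ± 71.1 CPM in nuc and 28.4 ± 5.22 in cyto, and RPPH1 at 49.3 ± 31.6 and 11.6 ± 3.25 CPM. The lowest nuc library lay above the highest cyto library for each, at 74.4 against 32.7 CPM for RMRP and 27.5 against 15.3 CPM for RPPH1. RMRP was 4.18-fold higher in nuc (log2 2.06 ± 0.34, adjusted p = 1.41e-05 by edgeR) and RPPH1 4.25-fold (2.09 ± 0.36, adjusted p = 2.27e-05). In this comparison 23.3% of 26774 rows were called. Among short rows such calls were more common. In a fit of rows of at most 500 nt only, 33.5% of 1997 were called higher and 42.5% lower. Without control nuc replicate 3 the log2 differences were 1.48 and 1.45, and both were still called.

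In siSSB cells RMRP was at 149 ± 74.6 CPM in nuc and 35.5 ± 7.23 in cyto, and RPPH1 at 57.8 ± 35.5 and 15.3 ± 3.58 CPM. Again the groups did not overlap. The log2 difference was 2.07 ± 0.34 for RMRP (4.19-fold, adjusted p = 2.43e-05 by edgeR) and 1.92 ± 0.36 for RPPH1 (3.79-fold, adjusted p = 0.000162), where 25.3% of rows were called. In a fit of rows of at most 500 nt only, 31.6% of 1985 were called higher and 41.9% lower. Without siSSB nuc replicate 2 the log2 differences were 1.63 and 1.34, both called. The change of this difference on knockdown was 0.03 ± 0.48 for RMRP (95% interval −0.93 to 1.003) and −0.13 ± 0.51 for RPPH1 (−1.16 to 0.91), each with adjusted p = 1 by edgeR, and 0.0133% of rows were called for such a change.

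These directions hold only where libraries are scaled by what most rows do or by their microRNA. With the column sum alone, the log2 difference of nuc over cyto in control cells was −2.07 for RMRP and −2.03 for RPPH1. It was −0.86 and −0.82 when libraries were scaled to the total of short rows, and −3.85 and −3.79 when scaled to the snoRNA total, RNAs that are themselves nucleolar. Scaled to the microRNA total it was 1.98 and 1.93. These totals differ between the fractions in opposite ways, with 99175 to 124543 microRNA counts in nuc and 336989 to 834239 in cyto, and 4032533 to 6379640 snoRNA counts in nuc and 218645 to 607902 in cyto. In each of these the median over all rows moved along, from −6.10 with the snoRNA total to −0.22 with the microRNA total. A change of scaling shifts all rows of a comparison nearly alike, so a distance from the median is nearly fixed by construction and is given as a description only. Relative to that median, RMRP stood 2.20 to 2.34 log2 units higher in nuc and RPPH1 2.16 to 2.37 over the 6 scalings in control cells, and 2.25 to 2.34 and 2.01 to 2.22 in siSSB cells. How much of either RNA a cell holds in each compartment was not measured, since no scale gives RNA per cell.

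**Figure D3:**
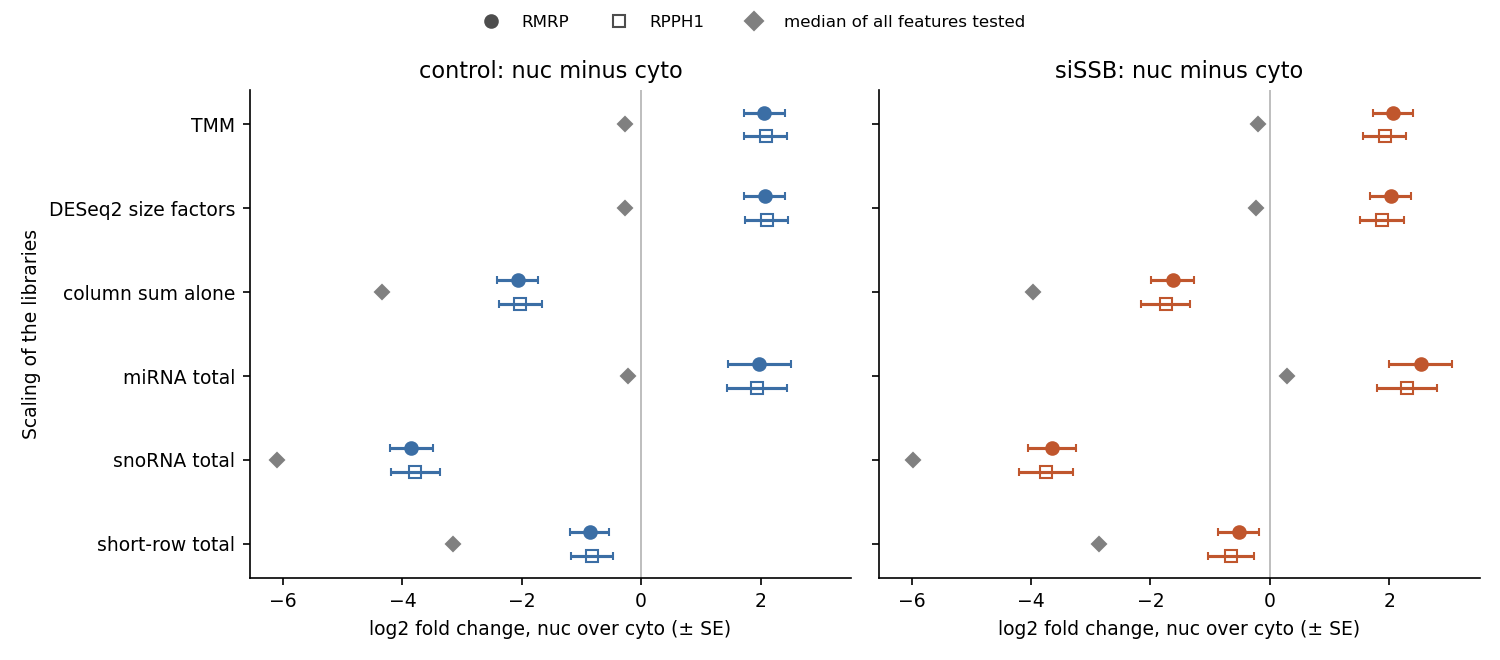
Log2 fold change of nuc over cyto (± SE, 3 libraries a group) for RMRP (circles) and RPPH1 (squares) under 6 scalings of the libraries, with the median of all rows tested as diamonds. The sign of both RNAs depends on the scaling, from −3.85 to 2.07 for RMRP in control cells, and the median of all rows shifts with it, so that the distance between them is nearly the same in every scaling by construction.

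A ratio of counts within a library needs no scaling, and 5 reference RNAs of known location were used for it. Against RNY1, a mostly cytoplasmic RNA, the count ratio of RMRP was 0.0470 ± 0.00471 in control cyto and 3.67 ± 2.76 in control nuc (n = 3 each). For RPPH1 the ratios to RNY1 were 0.0190 ± 0.00356 and 1.56 ± 1.22. Over both treatments the ratio to RNY1 was 80.7-fold higher in nuc for RMRP and 75.8-fold higher for RPPH1. Against VTRNA1-1 it was 13.0-fold and 12.3-fold higher in nuc. The groups did not overlap in any of these. The ratios carry the difference of the reference itself. RNY1 held 830 to 1993 counts in control nuc and 56364 to 106944 in control cyto. VTRNA1-1 held 224 to 344 and 2233 to 6062. The mean count of RMRP was 3621 in control nuc and 3641 in control cyto. Both references were chosen as cytoplasmic RNAs with earlier results known, so the direction was largely set by that choice.

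References of the nucleus gave both directions. Against SNORD3A, the U3 snoRNA that guides cuts of the rRNA precursor in the nucleolus, RMRP was 2.91-fold and RPPH1 3.09-fold lower in nuc than in cyto. Against RN7SK, RMRP was 9.03-fold and RPPH1 8.48-fold higher in nuc. Here the reference goes against its known nuclear location, because RN7SK itself held 1272 to 1669 counts in control nuc and 8644 to 19719 in control cyto, and its level was lower in nuc by TMM (log2 −1.22 ± 0.29, adjusted p = 0.00144 by edgeR). With the microRNA total RN7SK kept that direction but lost the call (log2 −1.20, adjusted p = 0.101 by edgeR). RN7SL1, which is known as a cytoplasmic RNA, was the reverse, at 3.05 ± 0.43 higher in nuc (adjusted p = 7.36e-07 by edgeR), a direction that turned with the column sum (log2 −1.06) and the snoRNA total (−2.82). Against RN7SL1, RMRP was 1.67-fold and RPPH1 1.78-fold lower in nuc.

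All 10 of these ratios had p = 0.005 in an exact two-sided permutation test within treatments, the smallest that 400 arrangements can give, and adjusted p = 0.005 over the 10. In each the 6 nuc and 6 cyto libraries did not overlap, as the plot of ratios to reference RNAs shows. Without the 2 high nuc libraries the differences kept their direction, with exact permutation p of 0.01 to 0.02. The RMRP ratio to RNY1 was then 5.70 log2 units higher in nuc, beside 6.33 with all libraries. How many other rows separate nuc from cyto in such ratios was not counted. Differences between these fractions were common, with 33.5% of rows of at most 500 nt called higher and 42.5% lower in control cells. RMRP and RPPH1 also vary together, so the 10 tests are not independent.

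**Figure D4:**
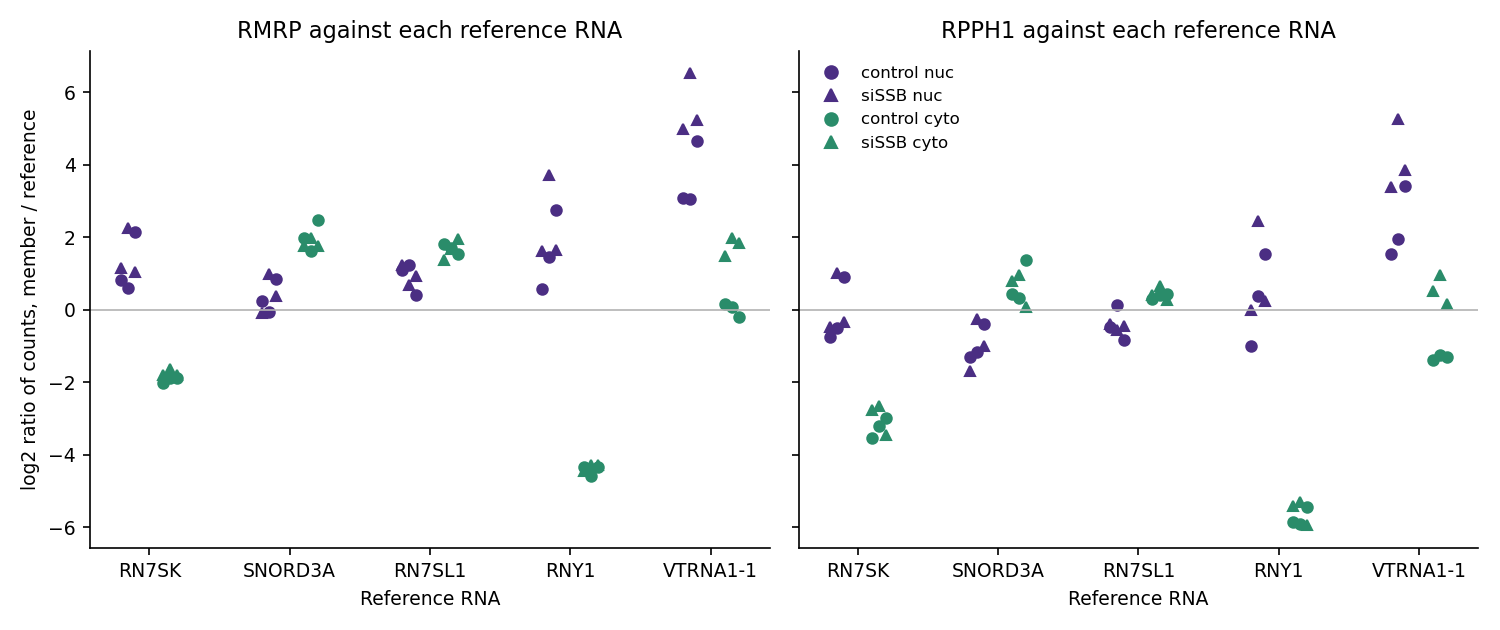
Log2 ratio of the counts of RMRP (left) and RPPH1 (right) to 5 reference RNAs in each nuc (purple) and cyto (green) library, with circles for control and triangles for siSSB. Nuc lies above cyto for RN7SK, RNY1 and VTRNA1-1 and below it for SNORD3A and RN7SL1, with no overlap in any pair.

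Other Pol III RNAs were found on both sides of this comparison. In control cells 8 of 18 tested rows of the list were called higher in nuc and 8 lower, with a median log2 difference of 0.59 beside −0.27 over all rows tested. Over all rows tested 9.21% were called higher in nuc and 14.1% lower. In the fit of rows of at most 500 nt only, these shares were 33.5% and 42.5%. The 4 rows of the U6 gene RNU6-1 were among the higher ones, and RNY1 was lower by −4.01 ± 0.34 (adjusted p = 3.79e-11 by edgeR). Of the tRNA rows 11 of 457 were called higher and 353 lower (median −2.26), and of the 9 rRNA rows 0 were called (1 at an unadjusted p under 0.05). SNORD13, a nucleolar snoRNA, was higher in nuc by 7.29 ± 0.38 (adjusted p = 9.6e-16 by edgeR). In siSSB cells 6 of 17 tested rows of the Pol III list were called higher and 7 lower, beside 10.9% higher and 14.5% lower over all rows. For rows of at most 500 nt only, these shares were 31.6% and 41.9%. Of the MALAT1 and NEAT1 rows, 12 of 69 were called higher in control cells and 8 of 69 in siSSB cells, and 0 lower, where 9.21% and 10.9% of all rows were called higher. In control cells 0 of the 69 were called without control cyto replicate 2, 4 without control cyto replicate 1 or control nuc replicate 3 and 5 without control nuc replicate 2. In siSSB cells 2 were called without siSSB cyto replicate 1, 5 without siSSB nuc replicate 2 and 14 without siSSB nuc replicate 3. These list counts are on the TMM scale. With the column sum alone all 69 of these rows and all 9 rRNA rows were called lower in nuc in control cells, and 0 of the Pol III list were called higher.

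The ratio of RMRP to RPPH1 differed between the total libraries and those of both fractions. It was 3.20, 3.42 and 3.62 in control total and 3.99, 4.46 and 3.25 in siSSB total. In control nuc it was 2.95, 2.14 and 2.35, and in siSSB nuc 3.05, 2.38 and 2.64. Every total library thus lay above every nuc library. In control cyto the ratio was 2.89, 2.48 and 2.14, and in siSSB cyto 1.95, 2.04 and 3.19. The highest cyto library, siSSB cyto replicate 3, stood just under the lowest total library. A mixture of nuc and cyto RNA would have a ratio between theirs, and the total ratio lay above both. Total libraries thus cannot be read here as the sum of the fractions, and the ratio may not be comparable between them. The reason was not tested.

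Averaged over treatments the ratio was 1.42-fold higher in total than in nuc (log2 0.50, pooled SD 0.19) and 1.51-fold higher in total than in cyto (log2 0.59, pooled SD 0.26). Both had p = 0.005 in the exact two-sided permutation test, the smallest it can give, and adjusted p = 0.015 over the 6 ratio comparisons. Without siSSB total replicate 2 the log2 differences were 0.45 and 0.54 and the calls were lost (adjusted p = 0.06 for each). Paired by replicate number the differences were the same, with exact p = 0.0313 and adjusted p = 0.0938. Without the 2 high nuc libraries the log2 difference of total over nuc was 0.44 (adjusted p = 0.03).

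For nuc against cyto this ratio did not differ beyond the spread between libraries, with a log2 difference of 0.09 and a pooled SD of 0.27 (exact permutation p = 0.565, adjusted p = 0.678). On knockdown the log2 ratio changed by 0.18 in total, 0.12 in nuc and −0.09 in cyto, with exact permutation p of 0.3, 0.5 and 0.8 where 3 libraries against 3 cannot go below 0.1. The adjusted p-values were 0.6, 0.678 and 0.8.

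**Figure D5:**
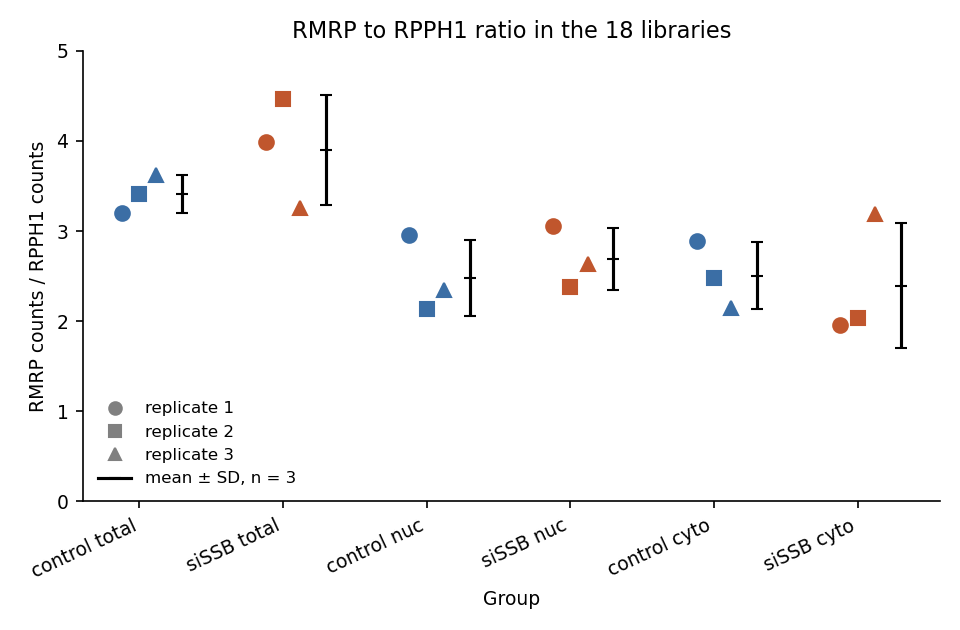
Ratio of RMRP to RPPH1 counts in each of the 18 libraries, with the group mean ± SD (n = 3) beside the points. The 6 total libraries lie between 3.20 and 4.46 and the 12 fraction libraries between 1.95 and 3.19.

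The 2 RNAs varied together between libraries of a group. On counts the SD within groups was 0.558 log2 units for RMRP and 0.618 for RPPH1, while that of their log2 ratio was 0.243. Likeness to other rows was measured as the SD over the 18 libraries of the log2 ratio of counts, so that a small value means a near-constant ratio. For RPPH1 the nearest of 1134 rows of at least 50 mean counts and at most 500 nt was RN7SL3, a 7SL gene, at 0.244, followed by RMRP at 0.344 and RN7SL2 at 0.360, with a median over rows of 1.80. For RMRP the nearest of 1135 rows was RN7SL3 at 0.320, then RPPH1 at 0.344, with a median of 1.73. The row lnc-CCNB1IP1-1, at the same value, holds the RPPH1 reads, and lnc-NEMF-1, level with RN7SL2, lies over that gene. The lncRNA rows lnc-LRRTM4-6 at 0.395 and lnc-TBPL1-4 at 0.457 completed the list for RMRP, and lnc-TBPL1-4 at 0.425 that for RPPH1. With group means removed, RMRP was the row nearest to RPPH1 (0.242), and RPPH1 shared that value as the RNA nearest to RMRP. By Pearson correlation of log2 CPM, each was only at rank 10 for the other (r = 0.925), behind rows such as lnc-TBPL1-4 for RMRP (0.944) and RN7SL2 for RPPH1 (0.98). These values describe 18 libraries that share their depth and composition effects and carry no test.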

How the data were processed

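Small RNA libraries were made from 18 HEK293T samples with a commercial small RNA kit, per the labels. The authors deposited raw counts per noncoding RNA row with no normalization, as whole numbers of reads. Bowtie2, bedtools and hg38 are named in the submitters' processing notes without versions or settings. The trimming, the use of strand and the treatment of reads with several positions are not given in the sources used here. The 2 rows on the strand opposite to RMRP held its counts again, so reads were counted there whatever the strand. A row can thus include antisense reads. A read in overlapping rows was counted in each. Counts per row had no molecular identifiers.

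For every comparison a model of its 6 libraries was made in R 4.3.3 with edgeR 4.0.16 (quasi-likelihood F-test, TMM, filterByExpr), and the nuc minus cyto knockdown effect on 12 libraries. Benjamini-Hochberg adjustment covered all rows tested, and rows with an adjusted p under 0.05 were called. The SE was taken from the F statistic. Log2 ratios (0.5 counts added) were compared by exact two-sided permutation tests, with labels permuted within treatment between fractions. Positions and sequences came from hg38 and GENCODE v44, aligned with biopython 1.88. The fits were tested on simulated data.

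The members, lists and naming rule were chosen with earlier results of these data known. Named were RMRP and RPPH1, rows over them, the reference RNAs, up to 6 listed RNAs per comparison among those called, by size of change, and the 5 rows most like each. RNU6-1, RNY and RN7SK values outside that rule were chosen after they were seen. For nuc against cyto in control, deviations of same-numbered libraries from their group means correlated at 0.152 to 0.206. Such correlations cannot decide whether replicate numbers pair the samples. Differently numbered libraries of the cyto knockdown comparison ran from −0.755 to 0.896. Alternatives covered scaling, filters, DESeq2 1.42.0, the block and leaving out libraries.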

Additional observations from a re-analysis of the deposited data

How the results depend on the processing

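Of 454 alternative values computed for 28 results, 389 kept their direction and their side of the threshold, 6 lost a call without changing sign and 59 changed sign, of which 47 belong to knockdown changes and other results with no call before or after. The cause of these changes was not tested. Scaling turned the difference of nuc over cyto. With the column sum alone it was −2.07 for RMRP and −2.03 for RPPH1 in control and −1.63 and −1.75 in siSSB. With the snoRNA total it was −3.85, −3.79, −3.65 and −3.75, and with the total of short rows −0.86, −0.82, −0.52 and −0.65, in the same order. The last of these scalings also lost the calls in siSSB (adjusted p = 0.144 and 0.101 by edgeR), and the others were called in the opposite direction.

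In total, the knockdown change of RPPH1 was 0.52 with the column sum, 0.68 with the snoRNA total, 0.51 with the total of short rows and 0.29 in short rows only, and that of RMRP was −0.40 with the microRNA total and 0.93, 0.75 and 0.74 with the snoRNA total, the column sum and the total of short rows, against 0.12 with TMM. In nuc, RPPH1 was at −0.0349 with DESeq2 size factors, −0.11 with no filter, −0.0352 by the DESeq2 Wald test and −0.0848 in a fit of all 18 libraries, and RMRP at −0.0128 with no filter. In cyto, RMRP was at 0.000339 with DESeq2 size factors, 0.17 with the column sum, 0.35 with the snoRNA total, 0.20 with the total of short rows, 0.15 in short rows only and 0.000279 by the Wald test, and RPPH1 at −0.0344 with the microRNA total. The knockdown effect on nuc over cyto was −0.0405 for RMRP with DESeq2 size factors and −0.0406 by the Wald test, and for RPPH1 0.28, 0.36, 0.0354 and 0.17 with the column sum, microRNA, snoRNA and short-row totals.

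Leaving out 1 library gave knockdown changes of −0.39 to 0.73 for RMRP and −0.63 to 0.68 for RPPH1 in nuc, and −0.18 to 0.13 and −0.16 to 0.35 in cyto. It gave −0.47 to 0.62 and −0.78 to 0.50 for the knockdown effect on nuc over cyto. The log2 ratio of RMRP to RPPH1 then changed on knockdown in cyto by −0.32 to 0.0367, and differed by 0.45 to 0.57 between total and nuc (0.44 without both high nuc libraries) and by 0.53 to 0.70 between total and cyto. Those last differences were 0.57 and 0.71 as differences of medians (adjusted p = 0.06 for each, exact permutation test). With the replicate block they were 0.50 and 0.59, and their calls were lost at the smallest p that 6 pairs allow. The block changed no other call of RMRP or RPPH1. Same-numbered libraries correlated at −0.824 to 0.376 in the knockdown comparisons and at −0.0218 to 0.125 in nuc against cyto of siSSB cells. These values do not decide whether the libraries were paired.

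The number of rows called was 186 in total (4 at an adjusted p under 0.01, 2413 with the microRNA total, 626 with no filter, 324 by DESeq2), 26 in nuc (0 with the column sum or without siSSB nuc replicate 2, 67 with no filter, 40 with the block) and 55 in cyto (2 without siSSB cyto replicate 1, 4 with the block, 248 with no filter, 157 by DESeq2). For nuc over cyto it was 6242 in control (1518 to 26438) and 6650 in siSSB (1459 to 25877), and 5 for the change between them (1 to 24). The alternatives without both high nuc libraries were chosen after seeing the data. With 3 libraries a group, changes inside the intervals given were not excluded, and other scalings moved some estimates beyond those intervals.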
